A study of Mus musculus with 12 samples.

Results

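The genes of 9 plasma membrane proteins that bring amino acids, iron or monocarboxylates into T cells are described, Slc7a5, Slc3a2, Slc7a1, Slc1a5, Slc1a4, Slc38a1, Slc38a2, Tfrc and Slc16a1. They were taken by gene symbol, and all 9 have a value among the 55011 genes of the count table. The libraries were made from regulatory T cells (Treg), a CD4 lineage that keeps other lymphocytes in check and depends on the transcription factor Foxp3. The comparison was between Treg with an intact Foxp3 gene (WT) and Treg whose Foxp3 gene the labels mark with a ∆ (∆Foxp3), in spleen and in lung, with 3 libraries in each of the 4 groups.

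All libraries came from male C57BL/6 mice at 21 days of age, and the sorted cells were DAPI negative and positive for TCRβ, CD4, GFP and CD25. WT mice of both tissues carried Foxp3.ires.GFP, an intact gene with a GFP reporter. The genotype label of the lung ∆Foxp3 libraries is ∆Foxp3.ires.GFP, and that of the spleen ∆Foxp3 libraries is ∆Foxp3.EGFP.iCre X R26.YFP, while the protocol text names only ∆Foxp3.ires.GFP, so the sources disagree on the spleen allele. Tissue and allele therefore cannot be told apart between the ∆Foxp3 groups. If the spleen label holds, spleen ∆Foxp3 also differs from spleen WT by EGFP.iCre and R26.YFP in place of ires.GFP. The spleen genotype comparison and the interaction then carry that difference, which cannot be told apart from the ∆. Tissue also goes with preparation: spleens were dissociated mechanically, whereas lungs were flushed and treated with collagenase and DNase. Lungs were also depleted of other cells by magnet to enrich CD4 cells. Each library was made from 1000 cells by Smart-seq2, which copies polyadenylated RNA and amplifies it by PCR, here for 18 cycles. Whether replicate libraries stand for different mice is not stated in the labels, so every p-value reflects only library-to-library spread, which may be technical.

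Slc7a5 (LAT1) imports large neutral amino acids such as leucine and reaches the cell surface only when linked to the heavy chain Slc3a2 (CD98), which also carries other light chains. Slc7a1 (CAT1) imports arginine and lysine, Slc1a5 (ASCT2) and Slc1a4 (ASCT1) exchange small neutral amino acids, with glutamine a substrate of Slc1a5, and Slc38a1 and Slc38a2 (SNAT1, SNAT2) import glutamine and other neutral amino acids with sodium. Tfrc (CD71) is the receptor that internalises iron-loaded transferrin, and Slc16a1 (MCT1) moves lactate and pyruvate with a proton. In T cells these carriers are known for rising after antigen receptor stimulation, when growth depends on imported leucine, glutamine and iron, and Myc, ATF4 and mTORC1 are among the regulators known to act on or through them.

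Iron also acts on the Tfrc message itself. Iron regulatory proteins (Aco1 and Ireb2) bind hairpins called iron-responsive elements when iron is scarce: those in the 3′ untranslated region of Tfrc shield its mRNA from decay, whereas those in the 5′ untranslated regions of the ferritin genes Fth1 and Ftl1 and of the exporter Slc40a1 hold back translation. The elements of these 4 genes are shown because Tfrc, the gene with the lowest adjusted p of the 9 in spleen, is set beside the other 3 further on. They were found in GENCODE M21 transcripts (GRCm38, the same assembly as mm10) as an unpaired C, 5 bases, the loop CAGTGN or CAGAGN whose last letter is not G, and 5 bases that pair with the earlier 5, G with T allowed. The loop is in capitals, and DNA letters are used.
Tfrc element at chr16:32631160-32631188, plus strand: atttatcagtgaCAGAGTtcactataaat
Tfrc element at chr16:32631219-32631247, plus strand: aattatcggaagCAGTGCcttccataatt
Tfrc element at chr16:32631598-32631626, plus strand: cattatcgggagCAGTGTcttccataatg
Tfrc element at chr16:32631663-32631691, plus strand: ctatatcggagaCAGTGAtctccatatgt
Tfrc element at chr16:32631710-32631738, plus strand: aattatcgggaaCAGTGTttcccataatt
Fth1 element at chr19:9982732-9982760, plus strand: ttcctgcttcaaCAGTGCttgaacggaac
Ftl1 element at chr7:45459779-45459807, minus strand: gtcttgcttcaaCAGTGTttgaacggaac
Slc40a1 element at chr1:45925465-45925493, minus strand: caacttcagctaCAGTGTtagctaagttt
Of 21877 coding genes, 452 (2.07%) had at least 1 match in the longest transcript, and Tfrc was the 1 gene with 5. The other 8 uptake genes had no match in the transcript searched, which says only that these letters are not there.

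Promoter windows from 250 bases before to 50 bases after an annotated start were given by RefSeq (GRCm38.p6) for 6 of the 9 genes, as 8 windows. The E-box CACGTG, a site that Myc with Max can bind, was in 7.15% of all 32851 windows and in the 1 of Slc16a1. The letters TGATGNAA, a core of the amino acid response element that ATF4 binds, were in 3.97% of all windows on either strand and in the 1 of Slc1a4, as the reverse complement. That form was chosen after the sequences had been seen: the longer TGATGNAAT was in 0.96% of windows and in 0 of the 8. The 2 windows with a match are shown with the match in capitals, as a description rather than as bound sites.
Slc16a1 at chr3:104638414-104638713, plus strand: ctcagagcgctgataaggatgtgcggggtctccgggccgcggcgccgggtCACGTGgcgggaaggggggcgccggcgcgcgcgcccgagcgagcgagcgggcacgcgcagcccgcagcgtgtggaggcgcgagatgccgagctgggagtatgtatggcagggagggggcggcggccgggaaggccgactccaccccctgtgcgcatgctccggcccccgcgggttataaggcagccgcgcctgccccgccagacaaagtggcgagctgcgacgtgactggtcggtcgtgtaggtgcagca
Slc1a4 at chr11:20332664-20332963, minus strand: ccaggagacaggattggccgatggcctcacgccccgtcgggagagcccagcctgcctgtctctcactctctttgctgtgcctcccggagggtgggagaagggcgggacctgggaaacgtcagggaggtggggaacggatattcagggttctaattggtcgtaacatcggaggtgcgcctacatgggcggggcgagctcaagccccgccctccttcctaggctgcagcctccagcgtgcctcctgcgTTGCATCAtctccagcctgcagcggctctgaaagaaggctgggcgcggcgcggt

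Library totals were 3958892 to 9025150 counts, and 3 counts in a library are 0.332 to 0.758 CPM, that is, counts scaled to a common library total. Foxp3 was at 991 to 1096 CPM in spleen WT and 114 to 227 in spleen ∆Foxp3, and at 1328 to 1418 in lung WT and 189 to 469 in lung ∆Foxp3. Its log2 fold change was -2.64 ± 0.29 (SE) in spleen and -1.98 ± 0.29 in lung (adjusted p 2.926e-05 and 0.00041, edgeR's quasi-likelihood test with Benjamini-Hochberg adjustment over all tested genes), and which part of the gene the remaining counts come from is not known. Il2ra, which encodes the CD25 of the gate, was lower in spleen (-1.02 ± 0.23, adjusted p 0.00531) and did not pass in lung (-0.49 ± 0.23, adjusted p 0.156). An earlier analysis of these data found that 3 libraries stand apart, spleen WT 1, lung WT 1 and lung ∆Foxp3 3, and counts are also given without them. Its measure is not given here. Chi-square per degree of freedom between 2 libraries was 36.64 and 40.39 for spleen WT 1, against 6.84 without it. For lung ∆Foxp3 3 it was 12.79 and 9.3, against 10.93, and for spleen ∆Foxp3 2 and 3 it was 35.67. Some markers of other cells moved with the groups. The summed level of 8 B and plasma cell markers was 1126 to 1296 CPM in spleen WT, 79.5 to 165 in spleen ∆Foxp3, 1945 to 1980 in lung WT and 142 to 263 in lung ∆Foxp3. Nearly all of that sum was the immunoglobulin gene Ighm, at 1088 to 1243 CPM in spleen WT, 50.5 to 134 in spleen ∆Foxp3, 1885 to 1939 in lung WT and 110 to 231 in lung ∆Foxp3. Ms4a1 was at 0 counts in spleen WT and Jchain at 0 in both lung groups. Of 10 T cell and Treg markers, 8 were lower and 1 higher in ∆Foxp3 spleen, where 12.5% and 14.1% of all tested genes were. In ∆Foxp3 lung 5 were lower and 1 higher, where 10.5% and 9.74% were. The summed level of 5 CD8 and NK cell markers was 15.2 to 57.0 CPM over all libraries, with Ncr1 at 0 counts. That of 8 endothelial and epithelial markers was 290.1 to 359 CPM in spleen WT, 95.6 to 151 in spleen ∆Foxp3, 317 to 505 in lung WT and 121 to 129 in lung ∆Foxp3. Most of it was Pecam1, at 268 to 328 CPM in spleen WT, 88.9 to 144 in spleen ∆Foxp3, 277 to 327 in lung WT and 105 to 117 in lung ∆Foxp3. The endothelial genes Cdh5 and Kdr were below 2 CPM in every library. The lung epithelial genes Sftpc and Scgb1a1 were at 64.0, 4.92 and 9.32 CPM and at 6.25, 3.63 and 174 CPM in lung WT. In lung ∆Foxp3 they were at 0.991 to 3.13 and 0.595 to 2.68 CPM, and in spleen at most at 0.357 and 0.536. The part of all these in the results below was not tested. In bulk libraries, fewer cells of a kind and less RNA per cell cannot be told apart.

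In spleen, 4 of the 9 uptake genes were higher in ∆Foxp3 than in WT (Tfrc, Slc1a4, Slc38a1 and Slc7a1) and 0 were lower, where 26.6% of the 13295 tested genes were called, 14.1% higher and 12.5% lower. In lung, 4 were higher (Slc7a1, Slc38a1, Slc3a2 and Tfrc) and 0 lower, where 20.2% of tested genes were called, 9.74% higher and 10.5% lower. Called means an adjusted p under 0.05 in edgeR. Their median log2 fold change was 0.70 in spleen and 0.84 in lung, against -0.02 and -0.01 over all tested genes, and the spleen median was 0.70 also with Slc1a4 at its lower bound. Without the 3 libraries that stand apart, 4 were called in spleen and 2 in lung, where Slc3a2 (adjusted p 0.0892) and Tfrc (adjusted p 0.106) no longer passed. Over all tested genes, 3352 were then called in spleen and 1321 in lung, against 3540 and 2686 with all libraries. In WT and ∆Foxp3 libraries of the same tissue, groups did not overlap for 38.2% of tested genes in spleen and 45.3% in lung, which is the background for each statement on overlap. All 9 passed the low-count filter, Slc1a4 only through the groups in which it had counts.

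**Figure D1:**
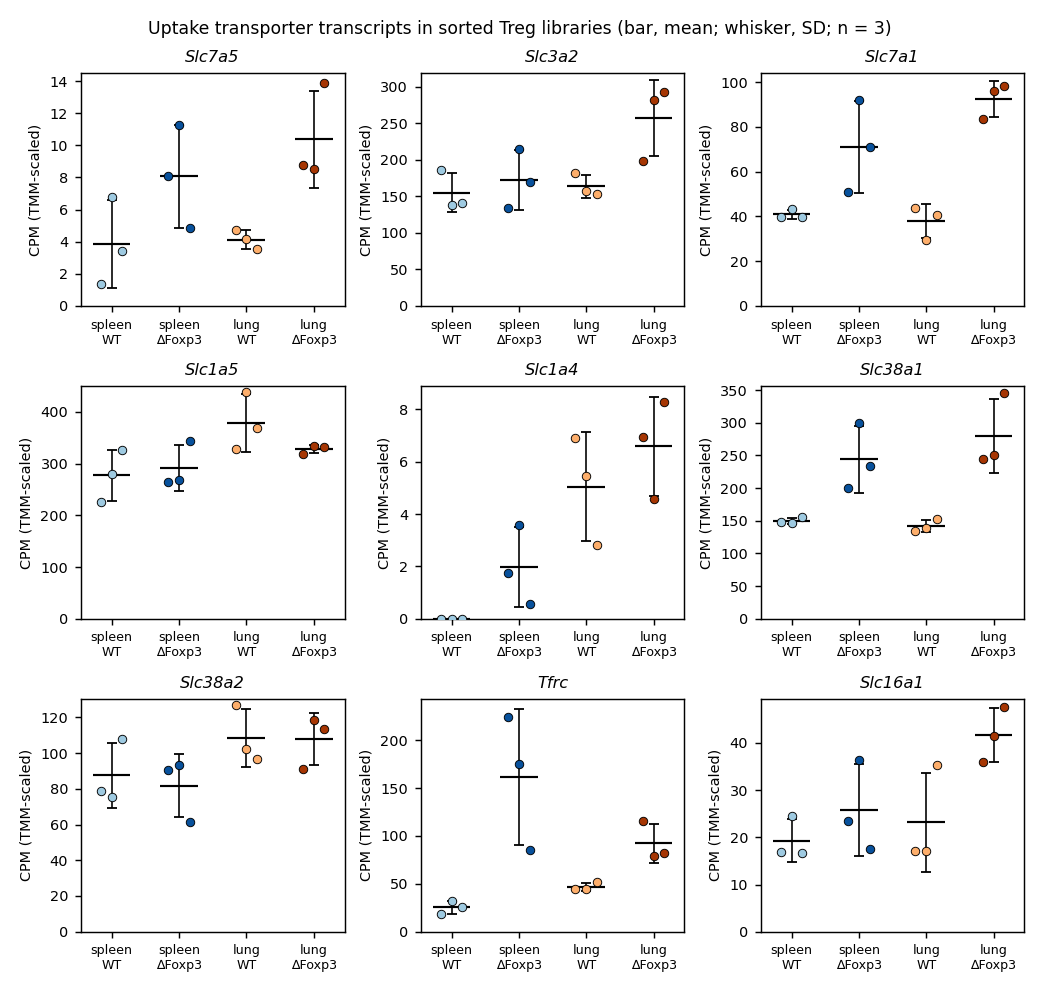
TMM-scaled CPM (y axis) of each uptake gene in the 12 libraries, grouped by tissue and genotype (x axis); points are libraries, bars means and whiskers SD of 3. The ∆Foxp3 points of Slc7a1, Slc38a1 and Tfrc lie above the WT points of the same tissue in both tissues, whereas those of Slc1a5 and Slc38a2 overlap them.

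Per kilobase of exon, merged over all annotated transcripts of a gene, Slc1a5 had the highest mean level over the 12 libraries at 76.5 CPM per kb, followed by Slc3a2 at 53.1. Tfrc, Slc38a1 and Slc38a2 came next, at 13.2, 11.8 and 10.9 CPM per kb, and Slc16a1 and Slc7a1 followed at 6.21 and 5.26. Slc7a5 and Slc1a4 were the lowest, at 1.78 and 0.866 CPM per kb. The merged length was 17236 bases for Slc38a1 and 6185 for Tfrc. Their longest coding transcripts had 7266 and 4890 bases. The order among Tfrc, Slc38a1 and Slc38a2, and of Slc16a1 and Slc7a1, thus depends on the length used. On the scale of CPM per gene, 3.95% of tested genes were above Slc1a5 and 82.5% above Slc1a4. The genes also differed in spread: the highest library was 12.1 times the lowest for Tfrc and 10.4 times for Slc7a5, against 1.94 times for Slc1a5.

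Slc7a5, the leucine carrier, lies on chromosome 8 (121881150 to 121907694, minus strand, GRCm38). Spleen WT libraries held 1.34, 6.79 and 3.39 CPM and spleen ∆Foxp3 libraries 8.09, 11.3 and 4.88. Lung values were 4.74, 4.15 and 3.52 CPM for WT and 8.77, 8.52 and 13.8 for ∆Foxp3. The lung groups did not overlap and the spleen groups did, through the second WT and the third ∆Foxp3 library. ∆Foxp3 minus WT gave a log2 fold change of 1.08 ± 0.54 in spleen (adjusted p 0.154) and 1.33 ± 0.54 in lung (adjusted p 0.0982), so neither passed, with counts of only 12 to 62 per library behind the values. Without spleen WT 2, the spleen value was 1.77 and passed (adjusted p 0.039), and the lung value passed in limma voom (0.0237), in a fit of the lung groups alone (0.02) and without spleen WT 1 (0.0332).

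Its partner Slc3a2, on chromosome 19 (8706882 to 8723369, minus strand), was at 186, 138 and 141 CPM in spleen WT and 134, 215 and 169 in spleen ∆Foxp3, which overlapped. Lung WT libraries were at 182, 158 and 153 CPM and lung ∆Foxp3 libraries at 198, 282 and 293, all 3 above WT. On the log2 scale, ∆Foxp3 differed from WT by 0.15 ± 0.20 in spleen (adjusted p 0.617) and 0.65 ± 0.20 in lung (adjusted p 0.0306). The lung call did not hold without lung WT 2 (adjusted p 0.0919), WT 3 (0.0814), ∆Foxp3 2 (0.0944) or ∆Foxp3 3 (0.11). Of the 38-base windows of its exons, 3.86% also occur in other genes, so reads from there are uncertain.

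The ratio of Slc7a5 to Slc3a2 counts within a library does not depend on library scaling. Slc7a5 counts were 0.72%, 4.9% and 2.4% of Slc3a2 counts in spleen WT and 6.06%, 5.25% and 2.88% in spleen ∆Foxp3. In lung they were 2.61%, 2.63% and 2.3% in WT and 4.43%, 3.02% and 4.73% in ∆Foxp3, with no overlap. The mean log2 ratio was higher in ∆Foxp3 by 1.14 in spleen (two-sided exact permutation p = 0.2, n = 3 and 3) and by 0.67 in lung (exact permutation p = 0.1, the smallest that 3 against 3 allows).

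Slc7a5 was a minor light chain by transcript. Slc7a6 (y+LAT2), which exchanges cationic for neutral amino acids on the same heavy chain, was at 15.2 to 27.2 CPM per kb over the 4 groups and made up 70.4% to 91.6% of the summed level of 5 light chains. Slc7a5 made up 1.32% to 7.21% of that sum in spleen WT and 4.96% to 9.16% in spleen ∆Foxp3. In lung it made up 4.52% to 7.25% in WT and 7.1% to 13.3% in ∆Foxp3. Slc7a6 did not pass in either tissue (log2 fold change -0.05 ± 0.18 in spleen, adjusted p 0.866, and 0.39 ± 0.18 in lung, adjusted p 0.153).

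Slc7a8 (LAT2), a neutral amino acid light chain, was the 1 light chain called in both tissues. It rose from 4.68, 0.179 and 0.926 CPM in spleen WT to 8.09, 21.8 and 27.8 in spleen ∆Foxp3 (log2 fold change 3.23 ± 0.79, adjusted p 0.00751). In lung, WT libraries held 0, 1 and 0 counts and ∆Foxp3 libraries 57, 26 and 50, a pooled ratio of 136 with an exact 95% binomial interval of 24.0 to 5420 that covers counting error only (adjusted p 0.00191). Slc7a11, the cystine carrier xCT, had at most 11 counts in a library and was not tested.

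**Figure D2:**
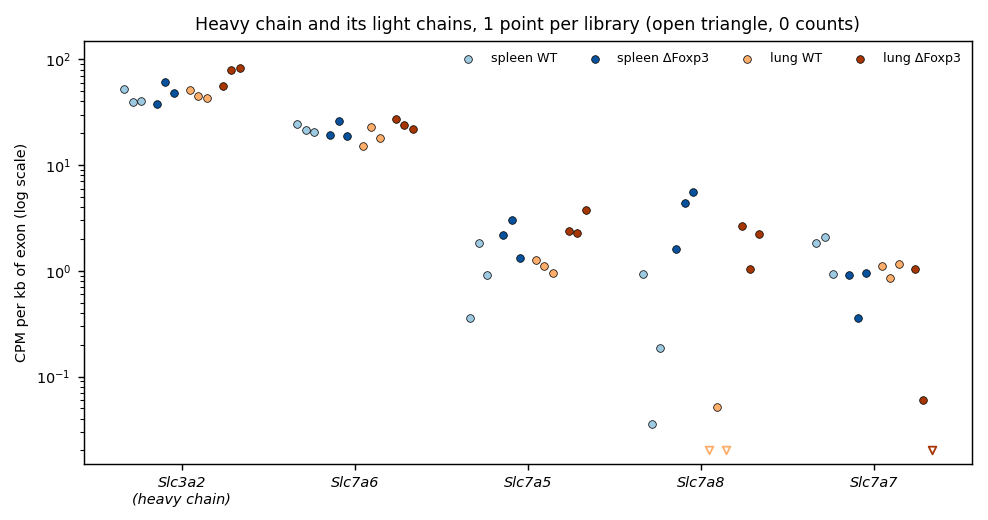
CPM per kb of exon (y axis, log scale) of the heavy chain Slc3a2 and 4 of its light chains (x axis) in the 12 libraries; each point is a library and an open triangle marks 0 counts. Slc7a6 lies between 15.2 and 27.2 in every library and above each other light chain, and Slc7a8 is near 0 in lung WT.

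Slc7a1, the arginine and lysine carrier on chromosome 5 (148327410 to 148399904, minus strand), was among the genes called in both tissues. Its spleen levels were 39.8, 43.2 and 39.8 CPM for WT and 50.7, 91.8 and 71.0 for ∆Foxp3. Its lung levels were 43.9, 29.5 and 40.8 CPM for WT and 83.3, 95.9 and 98.1 for ∆Foxp3. Every ∆Foxp3 library was above every WT library, also across tissues, and the share of tested genes apart across tissues was not computed. The log2 fold change was 0.80 ± 0.21 in spleen (adjusted p 0.0129) and 1.28 ± 0.22 in lung (adjusted p 0.00107). The spleen call was lost without spleen ∆Foxp3 2, its highest spleen library (0.58, adjusted p 0.0662), and in limma voom (0.52, adjusted p 0.0779), and the lung call held in all 23 alternatives.

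Slc38a1, a sodium-coupled glutamine importer on chromosome 15 (96571418 to 96642913, minus strand), was also called in both tissues. The 3 spleen WT libraries showed 148, 147 and 155 CPM, and the 3 spleen ∆Foxp3 libraries 199, 299.9 and 234. From lung came 135, 138 and 152 CPM in WT and 244, 251 and 345 in ∆Foxp3. The 6 WT libraries lay between 135 and 155 CPM, below all 6 ∆Foxp3 libraries, a separation across tissues whose share over all tested genes was not computed. ∆Foxp3 minus WT gave a log2 fold change of 0.70 ± 0.17 in spleen (adjusted p 0.00702) and 0.98 ± 0.17 in lung (adjusted p 0.00126), and both calls held in all 23 alternatives. Of its 38-base exon windows, 5.61% also occur in other genes.

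Slc38a2, its paralog, also on chromosome 15 (96687392 to 96699730, minus strand), is the carrier known for its induction when amino acids run short. Spleen WT libraries held 79.0, 75.4 and 108 CPM and spleen ∆Foxp3 libraries 90.7, 93.3 and 61.4. Lung values were 127, 102 and 96.7 CPM for WT and 91.1, 119 and 114 for ∆Foxp3. The groups overlapped in both tissues, and the log2 fold change was -0.10 ± 0.20 in spleen (adjusted p 0.756) and -0.01 ± 0.20 in lung (adjusted p 0.982).

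Slc1a5, the glutamine exchanger on chromosome 7 (16781340 to 16798274, plus strand), was the most abundant of the 9 genes and overlapped between genotypes. Its spleen levels were 227, 280 and 326 CPM for WT and 264, 268 and 343 for ∆Foxp3. Its lung levels were 329, 439 and 370 CPM for WT and 319, 335 and 331 for ∆Foxp3. On the log2 scale, ∆Foxp3 differed from WT by 0.07 ± 0.16 in spleen (adjusted p 0.781) and -0.21 ± 0.16 in lung (adjusted p 0.401).

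Slc1a4, an exchanger of serine and alanine on chromosome 11 (20302180 to 20332713, minus strand), was detected in 3 of the 4 groups. Spleen WT libraries held 0 counts each, which allows up to 0.142 CPM over the group, and spleen ∆Foxp3 libraries held 8, 15 and 4 counts. Lung WT libraries held 32, 21 and 16 counts and lung ∆Foxp3 libraries 30, 23 and 37. Against a floor of 3 counts over the spleen WT group, pooled CPM was at least 12.1-fold higher in spleen ∆Foxp3 (adjusted p 0.00198). In lung the groups overlapped, with a log2 fold change of 0.38 ± 0.67 (adjusted p 0.738).

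**Figure D3:**
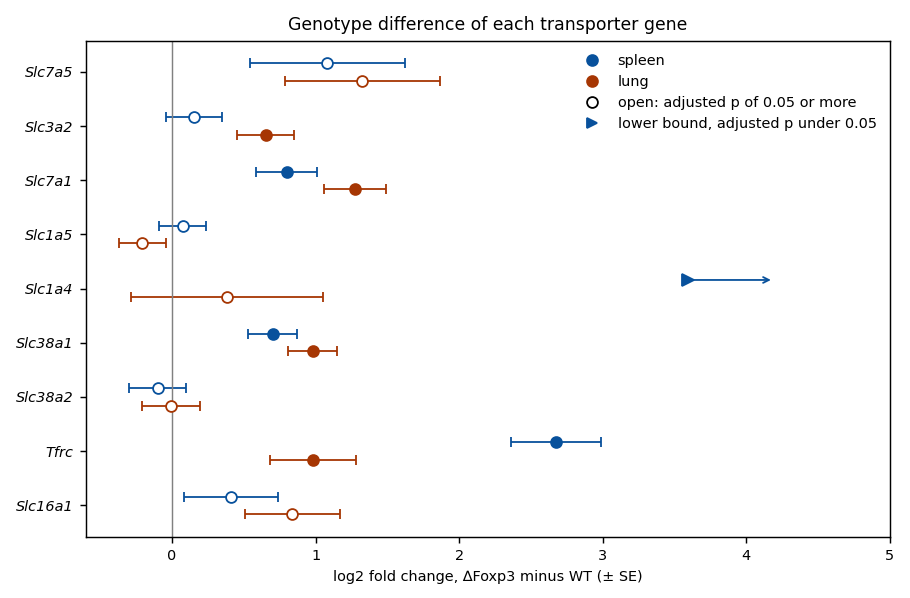
Log2 fold change of each uptake gene (x axis), ∆Foxp3 minus WT, with its SE, in spleen and lung; filled points passed at an adjusted p under 0.05 and the triangle is the lower bound of Slc1a4 in spleen. Tfrc is at 2.68 in spleen and 0.98 in lung, and Slc1a5 and Slc38a2 lie near 0.

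Tfrc, the transferrin receptor on chromosome 16 (32608920 to 32632794, plus strand), had the lowest adjusted p of the 9 genes in spleen. The 3 spleen WT libraries showed 18.5, 31.6 and 25.9 CPM, and the 3 spleen ∆Foxp3 libraries 224, 175 and 84.8. From lung came 44.4, 44.3 and 51.5 CPM in WT and 116, 79.1 and 81.8 in ∆Foxp3. Both genotype comparisons were free of overlap, and the WT groups were also apart, with lung above spleen. The log2 fold change was 2.68 ± 0.31 in spleen (adjusted p 3.164e-05) and 0.98 ± 0.30 in lung (adjusted p 0.0326). The spleen call held in all 23 alternatives, at 2.39 to 2.99. The lung call was lost when any lung library other than ∆Foxp3 2 was left out, at adjusted p 0.0869, 0.0908 and 0.0525 without WT 1, 2 and 3 and 0.0938 and 0.054 without ∆Foxp3 1 and 3.

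The size of the Tfrc difference between tissues was tested as an interaction. The log2 fold change was smaller in lung by 1.70 ± 0.42 (unadjusted p 0.00119, adjusted p 0.088), which did not pass in edgeR. It passed in DESeq2 (adjusted p 0.00673), in limma voom (0.0418), without the low-count filter (2.9e-06) and without spleen ∆Foxp3 3 (0.00342), the spleen ∆Foxp3 library with the lowest Tfrc. Red cell precursors also carry Tfrc. The summed level of 10 erythroid markers was 97.4 to 117 CPM in spleen WT, 26.8 to 518 in spleen ∆Foxp3, 2063 to 4972 in lung WT and 18.8 to 408 in lung ∆Foxp3. Of 8 tested erythroid markers, 2 were higher and 1 lower in ∆Foxp3 spleen, where 14.1% and 12.5% of all tested genes were. In ∆Foxp3 lung 0 were higher and 4 lower, where 9.74% and 10.5% were. Over the alternatives, 0 to 3 were higher in spleen and 1 to 8 lower in lung. In WT, 4 were higher in lung than in spleen, where 3.1% of all tested genes were. These markers went opposite ways in spleen. Gata1 made up most of the spleen WT sum, at 87.2 to 106 CPM, and was lower in ∆Foxp3, at 14.6 to 31.5 (adjusted p 0.00516). The globin gene Hbb-bs was at 2.93 to 8.35 CPM in spleen WT and 217, 5.51 and 6.46 in spleen ∆Foxp3 (adjusted p 0.171), and at 1328 to 3429 in lung WT and 0.396 to 268 in lung ∆Foxp3 (adjusted p 0.115). Klf1 was at 0 counts in spleen WT and in lung ∆Foxp3, and the part of these transcripts in the Tfrc levels was not tested.

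Iron storage, export and recycling genes were set beside Tfrc. Of 17 tested genes of iron handling, 3 were higher and 0 lower in ∆Foxp3 spleen, against 14.1% and 12.5% of all tested genes. In ∆Foxp3 lung 0 were higher and 3 lower, against 9.74% and 10.5%. The median log2 fold change of the list was 0.10 in spleen and -0.20 in lung. Over the alternatives, 0 to 4 were higher in spleen, with 0 without spleen WT 2 or spleen ∆Foxp3 1 and 1 without spleen WT 3 or spleen ∆Foxp3 3. The lung count ran from 1 to 4 lower, with 1 without lung WT 1, lung WT 2 or lung ∆Foxp3 1. Over all tested genes, spleen calls in the fits named were 2807, 2925, 2970 and 3398, against 3540 with all libraries. Lung calls were 1692, 1554 and 2324, against 2686. The ferritin heavy chain gene Fth1 ran from 922 to 991 CPM in lung WT and from 674 to 719 in lung ∆Foxp3, without overlap (log2 fold change -0.46 ± 0.15, adjusted p 0.0437). The light chain gene Ftl1 ran from 505 to 687 CPM in lung WT and from 318 to 374 in lung ∆Foxp3, also without overlap (-0.71 ± 0.17, adjusted p 0.00845). In spleen neither passed, at -0.30 ± 0.15 for Fth1 (adjusted p 0.154) and -0.47 ± 0.17 for Ftl1 (adjusted p 0.0517). Slc25a37, which carries iron into mitochondria, was the third lung gene to fall, by 1.13 on the log2 scale (SE 0.26, adjusted p 0.00722). The part of the erythroid transcripts given above in these 3 lung genes was not tested.

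The 3 spleen genes were Hmox1, which breaks down heme, Steap3, a ferrireductase of the transferrin cycle, and Slc40a1, the iron exporter ferroportin. Slc40a1 was at 40.3, 16.8 and 14.7 CPM in spleen WT and 127, 29.7 and 106 in spleen ∆Foxp3, which overlapped (log2 fold change 1.86 ± 0.59, adjusted p 0.0331). Hmox1 was at 20.6, 19.8 and 10.6 CPM in spleen WT and 116, 25.6 and 100.2 in spleen ∆Foxp3, without overlap (2.24 ± 0.63, adjusted p 0.0196). Steap3 stood at 0.111, 0.179 and 1.39 CPM in WT and 2.64 to 5.68 in ∆Foxp3 (2.97 ± 0.88, adjusted p 0.0211). With WT near the floor, that size is uncertain. Spleen ∆Foxp3 1 and 3, high for Hmox1 and Slc40a1, were also high for macrophage markers: C1qb was at 95.1, 11.0 and 47.1 CPM and Csf1r at 109.9, 13.2 and 49.9 in the 3 libraries. The 10 macrophage and dendritic cell markers together came to 366 to 576 CPM in spleen WT, 262 to 621 in spleen ∆Foxp3, 259 to 503 in lung WT and 153 to 237 in lung ∆Foxp3. Most of that sum was Ctss, at 334 to 423 CPM in spleen WT and lower in spleen ∆Foxp3, at 201 to 253 (adjusted p 0.0157), whereas Mrc1 was higher, at 0.926 to 4.12 CPM in WT and 2.4 to 50.5 in ∆Foxp3 (adjusted p 0.0133). Spleen ∆Foxp3 1, the highest of the 3 for C1qb, Csf1r and Hbb-bs, was also the highest for Tfrc, and spleen ∆Foxp3 2, the lowest of the 3 for C1qb and Csf1r, was second for Tfrc. The part of these markers in the levels of Hmox1, Slc40a1 and Tfrc was not tested. The iron sensors Aco1 and Ireb2 did not pass in either tissue.

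**Figure D4:**
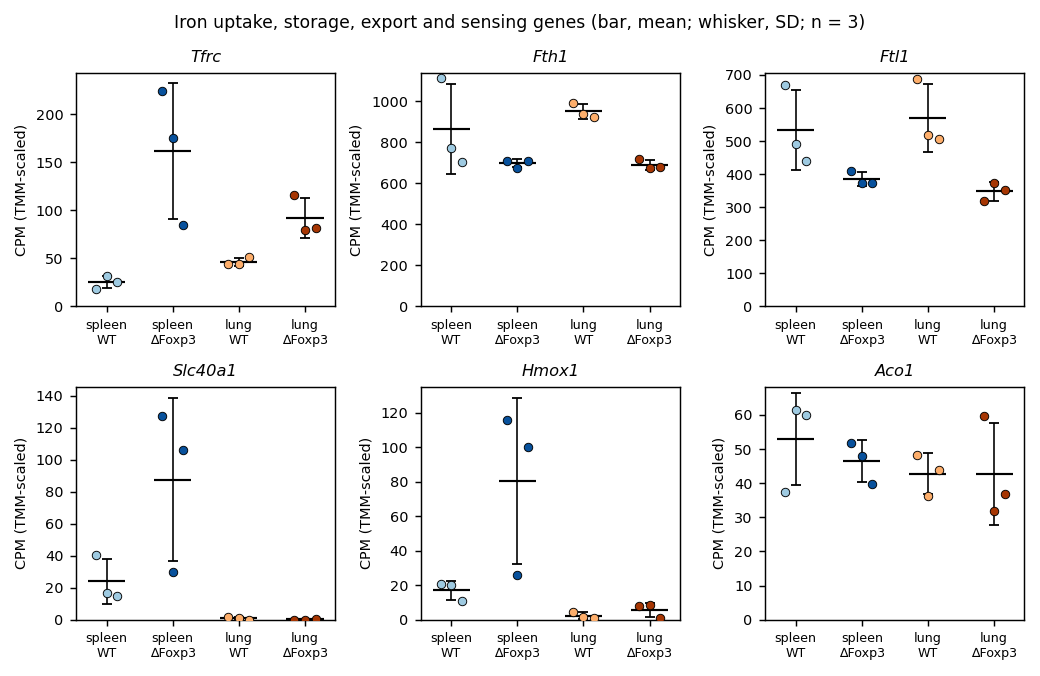
TMM-scaled CPM (y axis) of Tfrc and 5 other genes of iron uptake, storage, export, heme breakdown and sensing in the 12 libraries by group (x axis); points are libraries, bars means and whiskers SD of 3. Tfrc is higher in ∆Foxp3 in both tissues, Fth1 and Ftl1 are lower in lung ∆Foxp3, and Slc40a1 and Hmox1 are high in 2 of the 3 spleen ∆Foxp3 libraries.

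Slc16a1, the lactate and pyruvate carrier on chromosome 3 (104638668 to 104658462, plus strand), was at 16.8, 24.5 and 16.7 CPM in spleen WT and 23.4, 36.4 and 17.5 in spleen ∆Foxp3. Lung WT libraries were at 17.0, 17.1 and 35.3 CPM and lung ∆Foxp3 libraries at 36.0, 41.4 and 47.6. The spleen groups overlapped and the lung groups did not. ∆Foxp3 minus WT gave a log2 fold change of 0.41 ± 0.33 in spleen (adjusted p 0.392) and 0.84 ± 0.33 in lung (adjusted p 0.0855), and the lung value passed without lung WT 3, its highest WT library (1.33, adjusted p 0.017), in limma voom (0.96, adjusted p 0.00862) and in a fit of the lung groups alone (adjusted p 0.0445).

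Other genes of lactate and pyruvate handling were set beside Slc16a1. Of 9 tested, 4 were higher and 1 lower in ∆Foxp3 spleen (median 0.49), where 14.1% and 12.5% of all tested genes were. In ∆Foxp3 lung 3 were higher and 0 lower (median 0.72), where 9.74% and 10.5% were. Ldha, the lactate dehydrogenase subunit that favours lactate, was at 1058 to 1224 CPM in spleen WT and 1923 to 3697 in spleen ∆Foxp3 (log2 fold change 1.28 ± 0.20, adjusted p 0.000272). In lung Ldha was at 1152 to 1545 CPM in WT and 2349.6 to 2894 in ∆Foxp3 (0.97 ± 0.20, adjusted p 0.00313). The lactate exporter Slc16a3 (MCT4) rose in spleen from 18.2 to 27.7 CPM in WT up to 45.2 to 78.6 in ∆Foxp3 (1.56 ± 0.38, adjusted p 0.0071) and did not pass in lung (0.80 ± 0.38, adjusted p 0.153). Bsg, the chaperone that Slc16a1 and Slc16a3 need to reach the surface, did not pass in spleen (0.49 ± 0.18, adjusted p 0.0538) or lung (0.31 ± 0.18, adjusted p 0.248). Its relative Emb was called in spleen (1.79 ± 0.30, adjusted p 0.00072), and the related carrier Slc16a6 in spleen (0.86 ± 0.18, adjusted p 0.00258) and lung (1.27 ± 0.18, adjusted p 0.000298).

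Between the tissues in WT Treg, 1 of the 9 genes was called, where 4.13% of tested genes were, 3.1% higher in lung and 1.03% lower. Slc1a4 was that gene, at least 34.1-fold higher in lung against the floor over the spleen WT group (adjusted p 0.00283). Tfrc was higher in lung by 0.89 ± 0.30 and Slc1a5 by 0.45 ± 0.16 on the log2 scale, both without overlap between the groups, and neither passed (adjusted p 0.12 and 0.137). Groups did not overlap for 25.6% of tested genes in that comparison. For Tfrc the adjusted p ran under 0.05 with DESeq2 (0.0497), without the low-count filter (0.00303) and without spleen ∆Foxp3 3 (0.0287).

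Between the tissues in ∆Foxp3 Treg, 0 of the 9 passed in edgeR, where 0.722% of tested genes did. At an unadjusted p under 0.05, 4 of the 9 did (Slc3a2, Slc1a4, Tfrc and Slc16a1), as did 1220 of the 13295 tested genes. In DESeq2 0 of the 9 passed adjustment and in limma voom 2, against 235 and 228 of all genes. Slc3a2 was higher in lung by 0.58 ± 0.20 (adjusted p 0.306) and Tfrc was lower, at -0.80 ± 0.29 (adjusted p 0.371), both with overlapping groups. Slc1a4 was at 0.574 to 3.6 CPM in spleen ∆Foxp3 and 4.56 to 8.26 in lung ∆Foxp3, without overlap (1.77 ± 0.71, adjusted p 0.454), where groups were apart for 15.5% of tested genes.

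As an interaction, the genotype difference itself differed between the tissues for 0 of the 9 genes in edgeR, where 0.925% of tested genes were called, 0.143% with a higher and 0.782% with a lower value in lung. Slc1a4 and Tfrc were at an unadjusted p under 0.05, as were 1231 of the 13295 tested genes. Both passed in DESeq2 and Tfrc alone in limma voom, where 304 and 190 of all genes passed. For Slc1a4 (adjusted p 0.0821) the term rests on the 0 counts of spleen WT, so no size is given. The genes called in 1 tissue only, Slc1a4 in spleen and Slc3a2 in lung, were thus not shown to differ between tissues in that fit. Slc7a1 and Slc38a1 differed between tissues by 0.48 ± 0.30 and 0.28 ± 0.24 on the log2 scale (adjusted p 0.726 and 0.835). The tissue comparisons and the interaction use the same libraries as the genotype comparisons and are not independent of them. If the spleen label holds, the other allele of spleen ∆Foxp3 also enters the interaction.

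Of 26 amino acid carriers outside the 9, 12 were tested. In ∆Foxp3 spleen 2 were higher and 0 lower, where 14.1% of tested genes were higher, and in ∆Foxp3 lung 1 was higher and 0 lower, where 9.74% were. Without the libraries that stand apart, 2 were higher in each tissue. Their median log2 fold change was 0.05 in spleen and -0.15 in lung. Besides Slc7a8, the Slc38 family member Slc38a10 was called in spleen, at 105 to 126 CPM in WT and 164 to 195 in ∆Foxp3 (log2 fold change 0.68 ± 0.13, adjusted p 0.00173).

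Of 17 tested genes that use imported amino acids, 7 were higher and 0 lower in ∆Foxp3 spleen, with a median log2 fold change of 0.18, and 9 were higher and 3 lower in ∆Foxp3 lung, with a median of 0.61. The shares of all tested genes called higher were 14.1% in spleen and 9.74% in lung, and those called lower 12.5% and 10.5%. Without the libraries that stand apart, 5 were higher in spleen and 7 in lung, and the lung count fell to 4 without lung WT 2 and to 5 without lung ∆Foxp3 2 or lung ∆Foxp3 3. Over all tested genes, lung calls in these fits were 1321, 1554, 1596 and 1457, against 2686 in the main fit. Cad, which starts pyrimidine synthesis from glutamine, was at 26.2 to 33.1 CPM in spleen WT and 88.7 to 139 in spleen ∆Foxp3 (2.06 ± 0.22, adjusted p 1.32e-05). In lung Cad was at 38.6 to 40.4 CPM in WT and 79.6 to 123 in ∆Foxp3 (1.28 ± 0.21, adjusted p 0.000863). Gpt2, a mitochondrial alanine transaminase, and Got1, a cytosolic aspartate transaminase, were higher in spleen (4.85 ± 0.67, adjusted p 0.00018, and 0.94 ± 0.19, adjusted p 0.00244). Gpt2 was at 3.56, 1.25 and 0.154 CPM in spleen WT. Bcat1, the branched-chain transaminase that acts on leucine, rose in lung by 5.41 ± 0.74 (adjusted p 0.00031). It was at 0, 0.518 and 2.29 CPM in lung WT and 36.5, 37.1 and 60.1 in lung ∆Foxp3. With WT levels near the floor, the sizes for Gpt2 and Bcat1 are uncertain. Ass1, which helps remake arginine, fell in lung by 1.12 (SE 0.19, adjusted p 0.00108).

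The list of the amino acid response held 23 tested genes, targets of the transcription factor ATF4 and Atf4 itself. Of these, 9 were higher and 1 lower in ∆Foxp3 spleen (median 0.47), where 14.1% and 12.5% of all tested genes were. In ∆Foxp3 lung 7 were higher and 2 lower (median 0.48), where 9.74% and 10.5% were. Psat1 and Phgdh, enzymes of serine synthesis, were among them: in spleen Psat1 changed by 1.85 ± 0.29 (adjusted p 0.000405) and Phgdh by 1.19 ± 0.21 (adjusted p 0.000845). The translation repressor Eif4ebp1 was also called in spleen (1.44 ± 0.23, adjusted p 0.000378). In lung the tRNA synthetases Aars (1.24 ± 0.20, adjusted p 0.000713) and Gars (0.99 ± 0.19, adjusted p 0.00234) and Psat1 (1.43 ± 0.29, adjusted p 0.00366) led the list. Some stress genes of the list were lower: Ddit3 was the 1 lower gene in spleen, and Sesn2 and Trib3 were the 2 in lung, named after their values were seen. Atf4 did not pass in spleen (-0.15 ± 0.18, adjusted p 0.57) or lung (0.43 ± 0.18, adjusted p 0.0996). The count of higher genes in lung was 3 without the libraries that stand apart, 11 without spleen WT 1, 13 without spleen ∆Foxp3 2, and 14 in limma voom and in a fit of the lung groups alone. Over all tested genes, lung calls in these fits were 1321, 3364, 2951, 4598 and 3922, against 2686 in the main fit.

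Of 35 genes of amino acid sensing and mTORC1, including the downstream Rps6kb1 and Rps6, 2 were higher and 6 lower in ∆Foxp3 spleen. The shares of all tested genes there were 14.1% higher and 12.5% lower. In ∆Foxp3 lung 0 were higher and 4 lower, against 9.74% and 10.5% of all tested genes. Sesn1, a sestrin that restrains mTORC1 when leucine is low, had the lowest adjusted p of the list in both tissues. It was at 435 to 474 CPM in spleen WT and 24.5 to 54.0 in spleen ∆Foxp3 (-3.59 ± 0.24, adjusted p 6.242e-07). In lung Sesn1 was at 355 to 412 CPM in WT and 17.2 to 26.3 in ∆Foxp3 (-4.12 ± 0.25, adjusted p 6.563e-07). The 2 higher spleen genes were Sec13, a subunit of the GATOR2 complex (0.68 ± 0.18, adjusted p 0.0105), and Deptor, an inhibitor of mTOR, which held 3 counts over spleen WT and 88 over spleen ∆Foxp3 (pooled ratio 39.3, exact 95% binomial interval 13.0 to 194, adjusted p 0.0122). In lung, Castor2, an arginine sensor homolog, and Nprl2, a GATOR1 subunit, fell by 2.41 (SE 0.72, adjusted p 0.0317) and 0.55 (SE 0.17, adjusted p 0.0357). Without the libraries that stand apart, 2 were lower in spleen and 1 in lung. The spleen count was 2 also without spleen WT 1 alone, and the lung count was 1 without any 1 of the lung WT libraries or lung ∆Foxp3 3 and 9 in limma voom. Over all tested genes, spleen calls were 3575 without spleen WT 1, against 3540 in the main fit. Lung calls were 1692, 1554 and 2037 without lung WT 1, 2 and 3. They were 1457 without lung ∆Foxp3 3 and 4598 in limma voom, against 2686 in the main fit.

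Myc, which is known to drive several of these carriers in activated T cells, was at 363, 279 and 221 CPM in spleen WT and 159, 199 and 157 in spleen ∆Foxp3, lower without overlap (-0.75 ± 0.22, adjusted p 0.022). In lung Myc was at 159, 96.1 and 94.2 CPM in WT and 153, 206 and 166 in ∆Foxp3 (0.59 ± 0.22, adjusted p 0.0768). Of 17 tested genes of the Myc network, 4 were higher and 6 lower in spleen, where 14.1% and 12.5% of all tested genes were. In lung 5 were higher and 2 lower, where 9.74% and 10.5% were. Without the libraries that stand apart, 3 were higher and 4 lower in spleen and 3 higher and 1 lower in lung. The spleen count of higher genes was 1 without spleen WT 2, spleen WT 3 or spleen ∆Foxp3 2 and in a fit of the spleen groups alone, and the lung count of lower genes was 1 without lung WT 1, lung WT 2, lung ∆Foxp3 2 or lung ∆Foxp3 3. Over all tested genes, spleen calls in these fits were 2807, 2970, 2710 and 2287, against 3540 in the main fit. Lung calls were 1692, 1554, 1596 and 1457, against 2686. Among partners and antagonists in spleen, Mxd3 was higher (4.65 ± 0.40, adjusted p 3.87e-06) and Mxd1 and Mxd4 were lower (-1.74 ± 0.25, adjusted p 0.00018, and -0.95 ± 0.20, adjusted p 0.00323). In lung the Max partner Mga was lower (-1.21 ± 0.22, adjusted p 0.00175), and the nucleolar genes Ncl (0.98 ± 0.19, adjusted p 0.00207) and Nop58 (1.07 ± 0.23, adjusted p 0.00538) were higher.

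Cell cycle genes were also higher in ∆Foxp3. Of 17, all 17 were higher in ∆Foxp3 spleen (median 3.30) and 11 in ∆Foxp3 lung (median 1.11), where 14.1% and 9.74% of all tested genes were. In WT 15 were higher in lung than in spleen, where 3.1% of all tested genes were. The summed level of the 17 was 1165, 859 and 829.7 CPM in spleen WT and 6807, 8707 and 3617 in spleen ∆Foxp3. In lung it was 2330.0, 2630.0 and 3517 CPM in WT and 5149, 7252 and 6760.0 in ∆Foxp3. Tfrc, too, was lowest in spleen WT and next lowest in lung WT. Its mean was higher in spleen than in lung ∆Foxp3 (162 and 92.3 CPM), where both Tfrc and the sums overlapped. Within groups the libraries did not follow one order. In spleen ∆Foxp3 the library with the lowest sum had the lowest Tfrc, and in lung WT the one with the highest sum had the highest. The highest sum of spleen WT, however, was in the library with the lowest Tfrc, and the lowest sum of lung ∆Foxp3 in the library with the highest. Mki67, a proliferation marker, changed by 3.30 ± 0.35 in spleen (adjusted p 2.119e-05) and 0.80 ± 0.32 in lung (adjusted p 0.0941). The part of cell cycle in the uptake genes was not tested. The lung count was 3 of 17 without the libraries that stand apart, 5 without lung WT 1 or lung WT 2, 6 without lung ∆Foxp3 2 or lung ∆Foxp3 3, and 17 in limma voom. Over all tested genes, lung calls in these fits were 1321, 1692, 1554, 1596, 1457 and 4598, against 2686 in the main fit.

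**Figure D5:**
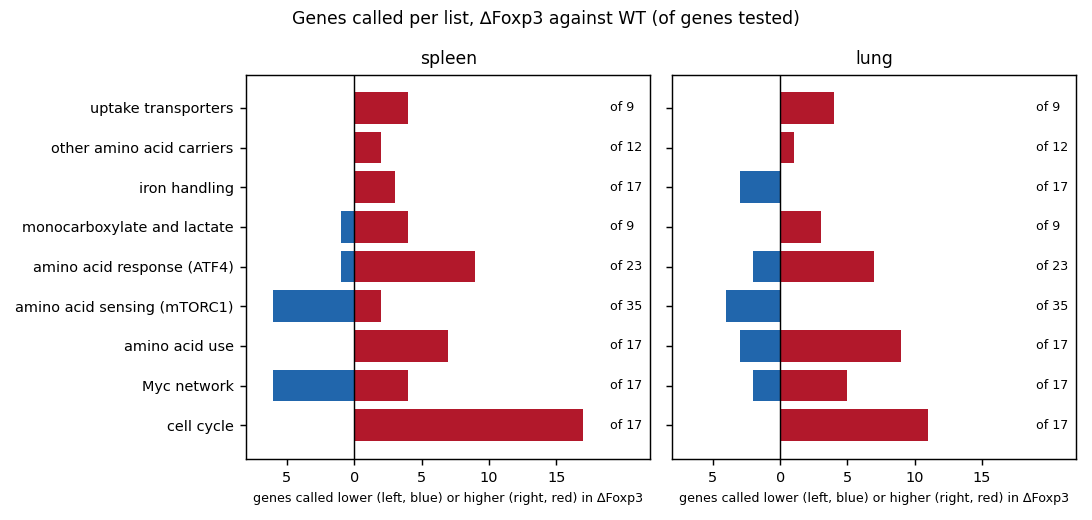
Number of genes called lower (left of 0) or higher (right of 0) in ∆Foxp3 on the x axis, for the uptake transporters and 8 lists of related genes (y axis), in spleen and lung; the number tested in each list is at the right. All 17 cell cycle genes are higher in spleen and 11 in lung, and the mTORC1 list has 6 lower and 2 higher calls in spleen and 4 lower and 0 higher in lung.

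Among themselves, the 9 genes fell into unequal patterns over the 12 libraries, given as Pearson's r of log2(CPM + 1), a description over libraries that share the 4 groups. Slc7a1 and Slc38a1 were most alike (r = 0.945), followed by Slc7a5 with Slc38a1 (0.786) and Slc3a2 with Slc7a1 (0.774). The 2 chains of the leucine carrier, Slc7a5 and Slc3a2, were at 0.496. Slc1a5 was at -0.145 with Slc7a1 and -0.101 with Slc38a1.

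Among 8551 tested genes averaging at least 10 CPM, the gene most like Slc7a1 was the prostacyclin receptor Ptgir (r = 0.977), followed by Il10 and Cyp11a1 (both 0.97). Slc38a1 was nearest to Atic, an enzyme of purine synthesis (0.97), Gmds (0.962) and the cytokine Il5 (0.96). For Tfrc they were Traf7 (0.955), Nucks1 (0.952) and the DNA damage kinase Chek2 (0.949). For Slc7a5 they were Api5 (0.932), Tarbp1 (0.931) and Pop1 (0.931), and for Slc3a2 they were Sp2 (0.92), Samsn1 (0.897) and Gata3 (0.893). Slc1a4 was nearest to the costimulatory receptor Icos (0.954), Myadm (0.934) and Ctnna1 (0.933), and Slc1a5 to Nfatc3 (0.915), Clasrp (0.911) and Elovl5 (0.9). For Slc16a1 the values were 0.934 (Ywhah), 0.919 (Prps1l3) and 0.899 (Ube2n), and for Slc38a2 they were the lowest, at 0.857 (Ets2), 0.848 (Klhdc4) and 0.839 (Coq10b).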

How the data were processed

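The authors deposited a single table of unnormalised counts for 55011 gene symbols in 12 libraries, with 0 columns of other series. The submitters' processing notes name the aligner STAR 2.7.3a, Subread 2.0.0 with featureCounts, and mm10. The gene annotation and strandedness of counting were not given in the sources used here. Per the labels' protocols, paired reads of 38 bases were taken without molecular identifiers, so intervals, and floors of 3 counts, reflect counting error alone.

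Counts were tested with edgeR 4.0.16 (R 4.3.3) as deposited: robust quasi-likelihood F test, TMM factors, filterByExpr by group (13295 genes kept), group as the only term in 1 fit over all 12 libraries, two-sided, Benjamini-Hochberg adjustment over all tested genes, called under 0.05. The 5 contrasts were ∆Foxp3 minus WT in each tissue, lung minus spleen in each genotype, and the interaction. Levels are TMM-scaled CPM with SD, per kb of merged GENCODE M21 exon where genes are compared. The ratio of Slc7a5 to Slc3a2 used an exact permutation test over libraries. Scripts were tested on simulated data, where edgeR called 39% of 100 genes with a 2-fold and 78% of 100 with a 4-fold change. A gene that did not pass may therefore still differ.

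The members, the 14 gene lists and the tests were chosen with earlier results of these data known. Named beside the members were Foxp3, up to 3 called genes per list with the smallest adjusted p, a fixed set (Myc, Slc7a6, Slc7a11, Slc16a3, Bsg, Slc40a1, Fth1, Ftl1, Aco1, Ireb2, Atf4, Mki67) and, per member, the 3 genes of 10 CPM or more with the highest Pearson r, predicted genes left out; exceptions are stated. Other light chains were described for the heavy chain. Single values of some marker genes are not reported here.

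Other settings tried were library totals alone, RLE or upper-quartile factors, no low-count filter, 10 CPM in 3 libraries, DESeq2 1.42.0, limma voom (limma 3.58.1) with quality weights, only the groups compared, a block for the replicate number, plain or nested in genotype, leaving out the 3 libraries that an earlier analysis found to stand apart, and leaving out each of the 12 libraries.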

Additional observations from a re-analysis of the deposited data

Results flagged for a closer look

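For 7 genes of the related lists, and for none of the 9 uptake genes, edgeR's quasi-likelihood test called the genotype difference unlike between the tissues, each smaller in lung. Of all tested genes 0.925% were called, 0.782% with a lower value in lung, so 0 of 9 is near that share. The 7 were 6 of the 17 tested cell cycle genes and 1 of the 17 tested Myc network genes. The lung minus spleen difference in log2 fold change was -3.69 for Mxd3 (adjusted p 0.00395), a partner of Max, and -3.08 for the mitotic kinesin Kif11 (adjusted p 0.00267). It was -2.87 for Birc5, -2.69 for Cdk1, -2.58 for Ccna2, -2.5 for Mki67 and -2.31 for Aurkb, which act in cell division (adjusted p 0.00741 to 0.0411). All 7 were higher in ∆Foxp3 than in WT in spleen, where WT levels were low. The summed level of the cell cycle list was 829.7 to 1165 CPM in spleen WT and 2330.0 to 3517 in lung WT. That list holds the flagged genes other than Mxd3, and the same WT libraries enter the difference, so the sum is not independent of it. The part of WT levels in the smaller lung difference was not tested.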

How the results depend on the processing

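The counts of uptake genes called (4 in spleen, 4 in lung, 1 between WT tissues, 0 between ∆Foxp3 tissues and 0 for the interaction) were the same with RLE factors, upper-quartile factors and library totals alone. Without the low-count filter they were 2 between WT tissues, 1 between ∆Foxp3 tissues and 2 for the interaction. Over all tested genes, calls there were 957, 292 and 363, against 549, 96 and 123 in the main fit. With 10 CPM in 3 libraries, Slc1a4 and Slc7a5 were not tested, and the counts were 3 in spleen and 0 between WT tissues. A fit of the compared groups alone gave 3 of 8 tested in spleen, where Slc1a4 was not tested, and 6 in lung. It called 2287 of all tested genes in spleen and 3922 in lung, against 3540 and 2686 in the main fit. DESeq2 gave 2 between WT tissues and 2 for the interaction, and limma voom 3 in spleen, 6 in lung, 2 between ∆Foxp3 tissues and 1 for the interaction. Over all tested genes, those comparisons had 1046 and 304 calls in DESeq2 and 4107, 4598, 228 and 190 in limma voom. Without the 3 libraries that stand apart, 2 were called in lung, where calls over all tested genes fell from 2686 to 1321. Leaving out 1 library at a time gave 3 to 5 in spleen, 2 to 5 in lung (2 without lung WT 2 or lung ∆Foxp3 3), 1 to 2 between WT tissues, 0 to 1 between ∆Foxp3 tissues and 0 to 2 for the interaction (2 without spleen ∆Foxp3 3). Over all tested genes, lung calls were 1554 without lung WT 2 and 1457 without lung ∆Foxp3 3. Interaction calls were 178 without spleen ∆Foxp3 3. With 1 library left out, the difference in the log2 ratio of Slc7a5 to Slc3a2 ran from 0.39 (without spleen WT 1) to 1.78 (without spleen WT 2) in spleen and from 0.54 to 0.87 in lung. The cause of these shifts was not tested, beyond the genes not tested.

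Same-numbered libraries did not pair: 18 correlations of their deviations ran from -0.0766 to 0.0871, 0 were over 0.1, and 4 of 12 libraries correlated best with their own number. With the replicate number as a block, 4 were called in spleen and 3 in lung, where Slc3a2 was at adjusted p 0.0508, and 1, 0 and 0 in the other comparisons. The ratio differences under the block were 1.14 and 0.67.

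Of 1015 alternative log2 fold changes of the 9 genes, 957 kept direction and call, 14 lost the call, 21 gained it and 23 changed sign, none of them called. With voom, the new values were 0.057 for Slc38a2 in lung, -0.10 for Slc1a5 in spleen and -0.089 for Slc7a5 between WT tissues, and without the 3 libraries they were 0.11, -0.014 and -0.38. Leaving out 1 library at a time, Slc38a2 ran from -0.049 to 0.16 in lung, from -0.20 to 0.080 in spleen and from -0.088 to 0.22 in the interaction. In spleen, Slc1a5 ran from -0.057 to 0.20 and Slc3a2 from -0.033 to 0.34. Between WT tissues, Slc7a5 ran from -0.27 to 0.82, Slc7a1 from -0.19 to 0.074 and Slc16a1 from -0.16 to 0.48. The Slc7a5 interaction ran from -0.45 to 0.67, and Il2ra between ∆Foxp3 tissues from -0.018 to 0.44. Depth limits Slc7a5 and Slc1a4, with at most 62 and 37 counts in a library.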
